A study of Homo sapiens with 12 samples.

Results

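DCLK1, KLF12, NTSR1, CAMK2N1, ANO1, FAM20C and KLHL5 are 7 of the 58721 genes measured by RNA-seq in the pancreatic cancer cell lines Pa-Tu-8902 and MIA PaCa-2. They were selected on their fall with doxycycline (dox) in Pa-Tu-8902, so their changes in that line are given as a description, with no test. The 3 libraries of each of 4 groups came from iDox-shGOT1 cells of each line, untreated or treated with dox for 5 days. In these cells dox induces a short hairpin RNA against GOT1, the cytosolic aspartate aminotransferase. The dose is given as 1 µg/mL in the methods of the study and as 1 µM/mL in the sample labels. Both the untreated and the dox groups carried the hairpin construct in stable lines made by lentiviral transduction and drug selection, and no dox-treated cells without it were sequenced, so dox and GOT1 loss cannot be told apart. The sources do not say which of the GOT1 hairpins the sequenced cells held, or whether the 3 libraries of a group were separate cultures, and p-values then measure the spread between libraries, which may be technical.

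The genes share no single pathway. DCLK1 is a doublecortin-domain kinase that binds microtubules, and in the pancreas it is best known as a marker of tuft cells and of cells that can start tumours. It is transcribed from an outer promoter, which gives long forms with the microtubule-binding doublecortin domains, and from a promoter inside the gene, which gives short forms with the kinase domain. NTSR1 is the Gq-coupled receptor of the peptide neurotensin. ANO1 is a calcium-activated chloride channel at the cell surface, CAMK2N1 is an inhibitor of the calmodulin-dependent kinase CaMKII, and FAM20C is the Golgi kinase that phosphorylates secreted proteins. KLF12 is a zinc-finger transcriptional repressor that recruits CtBP, and KLHL5 is a Kelch-domain protein of a family whose members serve as substrate adaptors of the CUL3 ubiquitin ligase.

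The deposited libraries held 26226537 to 43406137 counts. GOT1, the targeted gene, lay between 78.3 and 83.4 TPM (a level scaled for transcript length and library size) in untreated Pa-Tu-8902 and between 3.29 and 4.51 TPM with dox. In MIA PaCa-2 it lay between 38.9 and 44.1 TPM untreated and between 1.68 and 1.95 TPM with dox, so both lines carried the knockdown. EPCAM, an epithelial adhesion gene, was at 543 to 699 TPM in the Pa-Tu-8902 libraries and at most at 0.36 TPM in MIA PaCa-2. VIM, which encodes vimentin, was at 2.54 to 10.5 TPM in the Pa-Tu-8902 libraries and at 3531 to 4218 TPM in those of MIA PaCa-2, and KRT8 and KRT18 were expressed in both. Of the other mesenchymal markers listed, ZEB1 was at 0.63 to 0.88 TPM in Pa-Tu-8902 and at 7.71 to 12.4 TPM in MIA PaCa-2. CDH2 went the other way, at 0.56 to 1.16 TPM in Pa-Tu-8902 and at most at 0.01 TPM in MIA PaCa-2. A supplementary table of the study carries, under column names of Pa-Tu-8902, library counts that match the deposited MIA PaCa-2 columns. The lines are named here by the deposited titles, and the vimentin-rich, EPCAM-poor libraries are those titled MIA PaCa-2, a line known for that profile. The 4 acinar and 4 islet markers stayed under 1 TPM in all libraries of both lines. The fibroblast list was carried by a collagen gene in each line: COL1A1 averaged 4.50 TPM untreated and 19.6 TPM with dox in Pa-Tu-8902, COL1A2 averaged 226 and 372 TPM in MIA PaCa-2, and PDGFRB and LUM stayed under 1 TPM. The part of these collagen changes in the results was not tested.

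DCLK1 and the 2 genes that fell in both lines, NTSR1 and KLHL5, are shown first by the sequence at their start sites. The windows run from 250 bases before the start to 49 after it on the gene's own strand of GRCh38, and those of DCLK1 and NTSR1 come from RefSeq. Capitals mark matches, on either strand, to the 6 motifs searched: the TATA box (TATAAA), the CCAAT box, the GC box (GGGCGG), the AP-1 letters (TGACTCA), the cAMP response letters (TGACGTCA) and the E-box (CACGTG). The inner DCLK1 window (chr13:35855618-35855917, minus strand) is shown because all but 1 of the libraries with DCLK1 reads had them only in transcripts that start inside the gene, and the outer window (chr13:36131333-36131632, minus strand) for comparison. The NTSR1 window is chr20:62708586-62708885, plus strand. The KLHL5 window (chr4:39044810-39045109, plus strand) was read from the genome at the start of KLHL5-205, the transcript with the largest share, since the RefSeq entry for KLHL5 lies at the start of a minor one, KLHL5-204.
DCLK1 inner: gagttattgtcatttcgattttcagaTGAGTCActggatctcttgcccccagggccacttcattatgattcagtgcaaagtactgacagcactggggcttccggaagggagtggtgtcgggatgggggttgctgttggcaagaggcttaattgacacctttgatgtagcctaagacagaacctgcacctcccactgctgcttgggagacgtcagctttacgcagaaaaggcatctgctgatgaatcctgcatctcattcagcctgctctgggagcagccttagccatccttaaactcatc
DCLK1 outer: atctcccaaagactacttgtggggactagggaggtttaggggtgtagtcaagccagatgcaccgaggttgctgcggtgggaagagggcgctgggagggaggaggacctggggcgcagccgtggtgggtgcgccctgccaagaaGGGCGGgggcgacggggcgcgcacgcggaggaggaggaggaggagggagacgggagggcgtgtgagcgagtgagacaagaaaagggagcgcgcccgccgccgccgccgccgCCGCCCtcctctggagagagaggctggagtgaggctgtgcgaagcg
NTSR1: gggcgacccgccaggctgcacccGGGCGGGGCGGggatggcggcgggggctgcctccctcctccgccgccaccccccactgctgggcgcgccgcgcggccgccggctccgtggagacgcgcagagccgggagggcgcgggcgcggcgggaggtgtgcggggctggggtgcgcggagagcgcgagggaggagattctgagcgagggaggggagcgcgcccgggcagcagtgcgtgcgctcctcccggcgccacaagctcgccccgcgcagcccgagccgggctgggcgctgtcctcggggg
KLHL5: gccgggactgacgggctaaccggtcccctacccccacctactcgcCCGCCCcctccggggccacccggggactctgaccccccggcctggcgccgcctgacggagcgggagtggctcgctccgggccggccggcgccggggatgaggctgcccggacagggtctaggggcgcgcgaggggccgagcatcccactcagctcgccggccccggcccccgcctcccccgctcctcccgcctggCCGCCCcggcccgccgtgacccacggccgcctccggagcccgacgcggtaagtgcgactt
The inner DCLK1 window held 1 motif, TGACTCA, on the strand opposite to the gene, with its first letter 224 bases before the start. The same letters occur in 4.95% of the 35116 RefSeq promoters of the same length, and these matches are descriptions of the letters, not sites. The outer DCLK1 window held 2 matches to GGGCGG, a GC box. The NTSR1 window held 2 that overlap by 1 base, and the KLHL5 window held 2 on the opposite strand; GGGCGG occurs in 45.0% of all promoters. The inner DCLK1 window had 50.7% G and C, against 69.0% in the outer one, 81.7% at NTSR1 and 79.7% at KLHL5, with a median of 58.7% over all promoters. RefSeq windows were matched for 6 of the 7 genes, and CAMK2N1 was not matched. Over the 12 windows searched, GGGCGG was present in 6, CCAAT in 3 and TGACTCA in 2, and the other 3 motifs in 0. DCLK1 and KLF12 each gave several of these windows. Both windows with TGACTCA belong to DCLK1, the inner one and a further RefSeq window, not shown, with its start at chr13:36131939. Of all promoters, 34.6% hold CCAAT, 11.5% the TATA box, 1.85% the cAMP response letters and 7.26% the E-box.

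In Pa-Tu-8902, the 7 genes kept between 7.21% and 26.7% of their untreated level, and in each the dox libraries lay below the untreated ones. NTSR1, KLF12, DCLK1 and CAMK2N1 were the 4 steepest falls after GOT1 among the 11268 genes that averaged at least 100 normalized counts (counts divided by relative library size). ANO1 was at place 16, FAM20C at 19 and KLHL5 at 27. In all, 27 genes fell at least as steeply as KLHL5, and 20 of them are not among the 7. Just inside KLHL5 (log2 fold change of -1.90) stood GPR161 at -1.92, and just outside stood AP003068.2 at -1.89 and RTKN at -1.87. Of the 14949 genes tested in this line, 16.3% were called (edgeR's quasi-likelihood test, Benjamini-Hochberg adjusted p below 0.01 and a change of at least 1.5-fold) and 7.12% were called lower, and since the contrast selected the 7 genes nothing is read from their share.

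**Figure D1:**
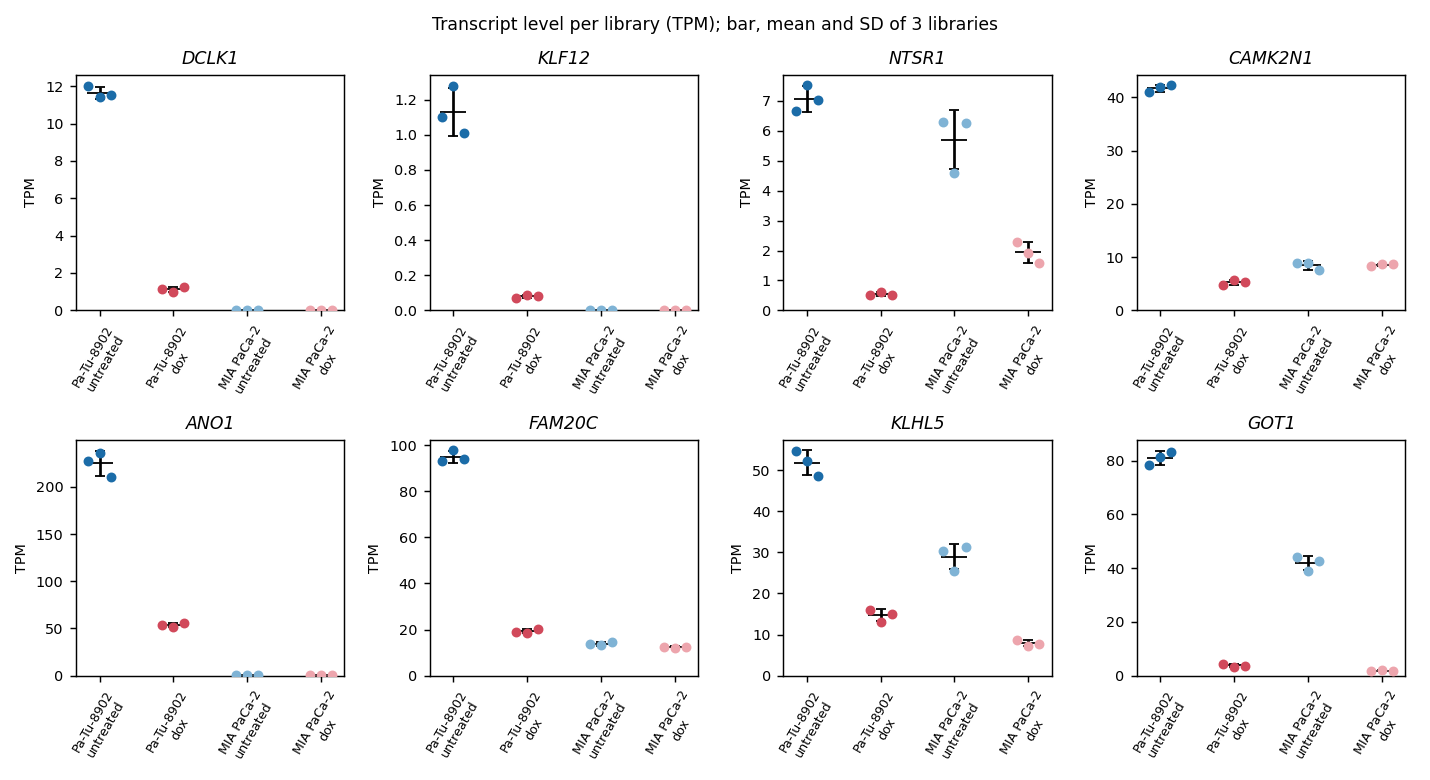
Level of each of the 7 genes and of GOT1 (y axis, TPM on a linear scale from 0, 1 scale per gene) in the 4 groups of 3 libraries (x axis); points are libraries, and bars give the mean and SD. In Pa-Tu-8902 each gene lies lower in the 3 dox libraries, while in MIA PaCa-2 DCLK1, KLF12 and ANO1 are at or near 0 in both groups.

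DCLK1 was at 12.02, 11.40 and 11.55 TPM in the untreated Pa-Tu-8902 libraries and at 1.13, 0.99 and 1.23 TPM with dox. The counts fell from 1159, 1384 and 1219 to 127, 145 and 132, a log2 fold change of -3.45 (SE 0.084), or 10.9-fold. In MIA PaCa-2 all 6 libraries held 0 counts of DCLK1. With a floor of 3 counts per library, untreated Pa-Tu-8902 stood at least 353-fold higher than MIA PaCa-2, and dox-treated Pa-Tu-8902 at least 30.9-fold higher, by the lowest Pa-Tu-8902 library and the highest floor. The change with dox in MIA PaCa-2 could therefore not be measured.

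The DCLK1 reads of Pa-Tu-8902 were assigned to short forms. The table lists 8 DCLK1 transcripts, of which the 3 that start at the outer promoter together held at most 3.03 estimated counts in any library, in 1 library of the 12. DCLK1-204, a protein-coding transcript that starts 275740 bases downstream of the outermost start (chr13:35771339-35855642), took 80.2% ± 2.10 (SD, n = 3) of the summed TPM untreated and 74.98% ± 5.00 with dox. It was at 9.50, 9.42 and 9.11 TPM untreated and at 0.90, 0.69 and 0.93 TPM with dox. DCLK1-205, a processed transcript from the same inner start region that shares 4.35% of its exonic bases with DCLK1-204, went from 1.63, 1.43 and 1.46 TPM to 0.22, 0.28 and 0.22 TPM. Their log2 fold changes were -3.54 (SE 0.129) and -2.71 (SE 0.227). The share of DCLK1-205 was 12.5% to 13.5% untreated and 17.9% to 28.3% with dox, with 25.2 to 45.5 estimated counts in each dox library.

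Apart from DCLK1, which was selected on its fall in Pa-Tu-8902, no tuft cell marker tested there was called. Because of that selection, no contrast between DCLK1 and the other markers is read from the calls. POU2F3, the tuft cell master regulator, was at 0.25 to 0.48 TPM untreated and at 0.12 to 0.20 TPM with dox in Pa-Tu-8902, and was not called. PTGS1, a cyclooxygenase, had 1, 0 and 7 counts untreated and 13, 12 and 14 with dox, and AVIL was at 0.20 to 0.75 TPM untreated and at 0.58 to 0.91 TPM with dox. Neither of these was called, and POU2F3 and PTGS1 met the minimum of 10 counts only in the group where each was higher, which favours a difference. TRPM5, the taste-type cation channel, was at most at 0.01 TPM and was not tested. Of the 14 tuft cell markers other than DCLK1 listed, 3 passed the filter on low counts in Pa-Tu-8902 and 0 were called. Over all genes tested, the share called was 16.3% there and 12% in MIA PaCa-2. In MIA PaCa-2 1 passed and was called lower, SH2D6, with 15.8, 15.4 and 12.8 normalized counts untreated and 0, 5.74 and 2.60 with dox (log2 fold change -2.37, SE 0.615, edgeR adjusted p = 0.00950). SH2D6 met the minimum of 10 counts only in the untreated group, so the filter itself favoured a lower call. The doublecortin relatives DCX and DCLK3 had 0 counts in every library. DCLK2 had 0 counts in Pa-Tu-8902. The MIA PaCa-2 libraries held 289 to 307 normalized counts of it untreated and 388 to 417 with dox (log2 fold change 0.42, under the fold limit and not called).

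KLF12 was the lowest of the 7 in level. It was at 1.10, 1.28 and 1.01 TPM in untreated Pa-Tu-8902 and at 0.07, 0.09 and 0.08 TPM with dox. The counts were 223, 329 and 256 untreated and 19, 30 and 20 with dox, which gave a log2 fold change of -3.77 (SE 0.151). In MIA PaCa-2 there was 1 count in 1 untreated library and 0 in the other 5, and the lowest untreated Pa-Tu-8902 library stood at 72.1 times the highest floor of 3 counts there. One transcript, KLF12-201, took 94.9% ± 4.43 of the KLF12 TPM in untreated Pa-Tu-8902.

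Other Krüppel-like factors, which share the zinc fingers of KLF12, moved in both directions. Of 17 listed, 13 were tested in Pa-Tu-8902, with 1 called higher and 3 lower (30.8%, median log2 fold change -0.11), and 11 in MIA PaCa-2, with 3 called higher and 1 lower (36.4%, median 0.06), beside medians over all genes tested of 0.0014 and -0.0089. The shares of all genes tested that were called were 16.3% and 12%, and the shares of this short list were not tested against them. KLF7 was at 1119, 1261 and 1106 normalized counts in untreated Pa-Tu-8902 and at 356, 353 and 358 with dox (log2 fold change -1.71, SE 0.073), and like KLF12 it was near 0 in MIA PaCa-2, with at most 2.20 normalized counts. KLF11 was called lower in both lines, by -0.98 in Pa-Tu-8902 against -0.73 in MIA PaCa-2 on the log2 scale. KLF13 had a log2 fold change of -0.81 (SE 0.092) in Pa-Tu-8902, where it was called lower, beside -0.13 (SE 0.134) in MIA PaCa-2. KLF4, a factor of epithelial differentiation, was called higher in MIA PaCa-2 alone (0.82, SE 0.061, against 0.05, SE 0.057, in Pa-Tu-8902), and KLF3 likewise by 0.60 in MIA PaCa-2 against 0.23. KLF15 was called higher in both lines, by 1.85 (SE 0.468) in Pa-Tu-8902, where it met the minimum of 10 counts only with dox, and by 0.77 (SE 0.148) in MIA PaCa-2. Of 3 genes listed for their link to KLF12 and tested in each line, 0 were called (median log2 fold changes -0.27 and -0.13). The corepressors CTBP1 and CTBP2, with which KLF12 works, were among these, with log2 fold changes of -0.18 and -0.48 in Pa-Tu-8902 against -0.21 and -0.13 in MIA PaCa-2.

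NTSR1 was expressed at similar levels in both untreated lines and fell in both. It was at 6.66, 7.53 and 7.04 TPM in untreated Pa-Tu-8902 and at 0.50, 0.62 and 0.50 TPM with dox. The MIA PaCa-2 libraries were at 6.30, 4.58 and 6.25 TPM untreated and at 2.30, 1.93 and 1.58 TPM with dox. The groups did not overlap in either line, and the order of the means was untreated Pa-Tu-8902 (7.08 ± 0.44), untreated MIA PaCa-2 (5.71 ± 0.98), dox-treated MIA PaCa-2 (1.94 ± 0.36) and dox-treated Pa-Tu-8902 (0.54 ± 0.07). The log2 fold change was -3.79 (SE 0.125) in Pa-Tu-8902 against -1.63 (SE 0.126) in MIA PaCa-2. The MIA PaCa-2 contrast was not used to select the gene, and there NTSR1 was called lower (edgeR adjusted p = 2.41e-06), as were 7.64% of the 14589 genes tested. In a fit of all 12 libraries the change in Pa-Tu-8902 minus that in MIA PaCa-2 was -2.16 (SE 0.193) on the log2 scale, a difference that is not tested because the Pa-Tu-8902 value chose the gene.

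NTSR1 reads were split between the 2 transcripts in the table. NTSR1-201, which covers the whole coding gene, was at 5.42, 4.48 and 5.08 TPM in untreated Pa-Tu-8902 and at 0.28, 0.44 and 0.32 TPM with dox. In MIA PaCa-2 it was at 4.32, 2.86 and 3.95 TPM untreated and at 1.26, 1.16 and 1.05 TPM with dox, and was called lower (log2 fold change -1.76, SE 0.172, edgeR adjusted p = 0.00433). This call was kept without untreated replicate 2, but it was lost when any of the other 5 libraries was left out and with the replicate number as a block. NTSR1-202 is a processed transcript from the 3' part of the gene that shares 96.4% of its bases with NTSR1-201, so reads are hard to split between them. It took 28.99% ± 10.99 of the NTSR1 TPM in untreated Pa-Tu-8902 and 36.8% ± 7.496 with dox, which differ by less than their spread. Its change in MIA PaCa-2 did not pass the test (log2 fold change -1.46, SE 0.282, edgeR adjusted p = 0.0350).

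The ligand of NTSR1 was at or near 0 counts in these cells. Neurotensin (NTS) had at most 1.94 normalized counts in Pa-Tu-8902 against 0 to 5.91 in MIA PaCa-2, and the other receptor NTSR2 had 0 in every library. Of 9 genes of the neurotensin system and the Gq pathway below it, 6 were tested in Pa-Tu-8902 and 2 were called, both lower, and 5 were tested in MIA PaCa-2 and 0 were called (median log2 fold changes -0.10 and -0.41). Of all genes tested, 16.3% were called in Pa-Tu-8902 (7.12% lower) and 12% in MIA PaCa-2. The counts of this short list were not tested against these shares. The 2 listed genes called lower encode phospholipase C, the enzyme that Gq activates. PLCB3 was at 2748 to 2862 normalized counts untreated and at 1712 to 1743 with dox in Pa-Tu-8902 (log2 fold change -0.70, SE 0.046). In MIA PaCa-2 its value was -0.44 (SE 0.065), under the fold limit. PLCB4 had a log2 fold change of -0.69 (SE 0.111) in Pa-Tu-8902 and 0 counts in MIA PaCa-2. SORT1, the sorting receptor that also binds neurotensin, was not called in either line, at -0.02 and -0.41.

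CAMK2N1 was at 41.0, 41.9 and 42.3 TPM in untreated Pa-Tu-8902 and at 4.78, 5.67 and 5.30 TPM with dox. The MIA PaCa-2 libraries were at 8.91, 8.90 and 7.49 TPM untreated and at 8.32, 8.64 and 8.62 TPM with dox. The MIA PaCa-2 groups overlap and lie between the 2 Pa-Tu-8902 groups, so the line with the higher untreated level had the lower one with dox. The log2 fold change was -3.23 (SE 0.083) in Pa-Tu-8902 and -0.05 (SE 0.107, edgeR adjusted p = 0.762) in MIA PaCa-2. The difference between the lines was -3.18 (SE 0.144), the widest among the 5 genes measured in both.

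The fall of CAMK2N1 in Pa-Tu-8902 lay in CAMK2N1-201, its main transcript, which went from 39.2, 40.6 and 40.9 TPM to 3.83, 4.45 and 4.66 TPM. CAMK2N1-202, a processed transcript inside the gene, was at 1.83, 1.36 and 1.38 TPM untreated and at 0.95, 1.22 and 0.64 TPM with dox, on 8.18 to 22.6 estimated counts. Its share of the summed TPM was 3.66% ± 0.70 untreated and 17.8% ± 5.04 with dox. Among the CaMKII subunits and calmodulins, which CAMK2N1 acts on or beside, 6 were tested in Pa-Tu-8902 and 2 were called, both higher (median log2 fold change 0.28). In MIA PaCa-2 7 were tested and 0 were called (median 0.20). These counts stand beside 16.3% and 12% of all genes called in either direction in the 2 lines. CAMK2D, the delta subunit of CaMKII, was at 161, 174 and 172 normalized counts in untreated Pa-Tu-8902 and at 585, 533 and 556 with dox, a log2 fold change of 1.72 (SE 0.088). In MIA PaCa-2 it was at 159 to 183 untreated and 140 to 171 with dox, which overlap. CAMK2G, the gamma subunit, was called higher in Pa-Tu-8902 by 0.60 (SE 0.051) and stood at 0.38 (SE 0.064) in MIA PaCa-2, under the fold limit.

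ANO1 was the most abundant of the 7 in Pa-Tu-8902, above 97.0% of the genes detected there. It was at 228, 236 and 211 TPM untreated and at 53.9, 51.9 and 55.9 TPM with dox. The MIA PaCa-2 libraries were at 0.53, 0.26 and 0.28 TPM untreated and at 0.20, 0.17 and 0.39 TPM with dox. The ratio of the line means was 631 untreated and 213 with dox, so dox-treated Pa-Tu-8902 still held far more ANO1 than either MIA PaCa-2 group. The log2 fold change was -2.19 (SE 0.051) in Pa-Tu-8902 and -0.56 (SE 0.371, edgeR adjusted p = 0.254) in MIA PaCa-2. There the 6 libraries held 14 to 37 counts and the groups overlap. The MIA PaCa-2 value, a 1.47-fold fall, also lay under the limit of 1.5-fold, and ANO1 was not called.

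The 2 ANO1 transcripts with the most reads, ANO1-202 and ANO1-209, fell by similar amounts, while 2 short models differed from them. The table lists 10 ANO1 transcripts. ANO1-202, protein-coding, was at 78.4, 83.2 and 72.0 TPM in untreated Pa-Tu-8902 and at 18.0, 16.9 and 18.8 TPM with dox (log2 fold change -2.18, SE 0.057). It held 7492 to 10007 estimated counts untreated. ANO1-209 changed by -2.27 (SE 0.102), with shares of 27.2% ± 3.03 untreated and 24.5% ± 0.64 with dox. ANO1-206, a model of 806 bases, was at 52.5, 52.7 and 47.6 TPM untreated and at 16.4, 17.7 and 17.7 TPM with dox, a log2 fold change of -1.61 (SE 0.104), and its share went from 22.7% ± 0.36 to 32.1% ± 1.83. That share rested on 618 to 783 estimated counts untreated. ANO1-208, a model of 577 bases, was at 25.7, 26.1 and 14.1 TPM untreated and at 2.98, 1.78 and 3.12 TPM with dox (log2 fold change -3.11, SE 0.331), on 107 to 230 estimated counts untreated. In MIA PaCa-2, beside ANO1-202, the shares of ANO1-201, ANO1-205 and ANO1-208 reached 10% in a group mean, but each on at most 4.16 estimated counts per library, so the shares there carry no information on transcript use.

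Of the neighbours and relatives of ANO1, 1 was called in Pa-Tu-8902. ANO1 lies on chromosome 11 beside CCND1, CTTN, FADD, PPFIA1 and SHANK2 in a region that is amplified in many carcinomas. Of 6 such neighbours tested, 1 was called in Pa-Tu-8902, SHANK2, a postsynaptic scaffold gene, which had 1759, 1765 and 1444 normalized counts untreated and 1175, 978 and 1120 with dox (log2 fold change -0.60, SE 0.091), and 0 were called in MIA PaCa-2. The median over the 6 was -0.22 in Pa-Tu-8902 against 0.01 in MIA PaCa-2. Of the other anoctamins 5 were tested in Pa-Tu-8902 and 0 were called (median -0.02). In MIA PaCa-2, 3 were tested and 2 were called lower, ANO8 with a log2 fold change of -0.91 (SE 0.114) and ANO10 with -0.69 (SE 0.116). Of all genes tested, 16.3% were called in Pa-Tu-8902 (7.12% lower) and 12% in MIA PaCa-2 (7.64% lower). The counts of these short lists were not tested against these shares.

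FAM20C was at 93.0, 98.0 and 94.1 TPM in untreated Pa-Tu-8902 and at 18.9, 18.7 and 20.2 TPM with dox. In MIA PaCa-2 it was at 13.6, 13.1 and 14.5 TPM untreated and at 12.6, 12.2 and 12.6 TPM with dox. The order of the means was thus both Pa-Tu-8902 groups above both MIA PaCa-2 groups, and the ratio of the lines was 6.93 untreated and 1.54 with dox. The log2 fold change was -2.13 (SE 0.059) in Pa-Tu-8902 against -0.40 (SE 0.075) in MIA PaCa-2. The latter had an edgeR adjusted p of 0.00133 but was 1.32-fold, under the limit of 1.5-fold, and FAM20C was not called. In MIA PaCa-2 the log2 fold change was -0.13 (limma adjusted p = 0.393) on log2(TPM + 1) and -0.20 with effective lengths as offsets.

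The transcripts of FAM20C differed in their values. FAM20C-201, which encodes the kinase, was at 52.2, 56.4 and 55.2 TPM in untreated Pa-Tu-8902 and at 12.4, 13.2 and 14.3 TPM with dox, a log2 fold change of -2.10 (SE 0.095). FAM20C-202 is a processed transcript of 554 bases at chr7:195625-197575 of GRCh38, inside the span of FAM20C-201, with which it shares 19.5% of its bases in GENCODE release 44. It was at 39.3, 40.6 and 38.2 TPM untreated and at 4.98, 4.85 and 5.43 TPM with dox, a log2 fold change of -2.99 (SE 0.159). Because it is short, its 41.4% ± 0.82 of the untreated TPM rested on 256 to 334 estimated counts, against 2750 to 3736 for FAM20C-201. With dox its share in Pa-Tu-8902 was 26.4% ± 0.45. The MIA PaCa-2 libraries held 8, 8 and 8 estimated counts of this transcript untreated and 14, 18 and 25 with dox. Its share was 7.65% ± 0.20 untreated and 22.2% ± 4.17 with dox, but the change did not pass the test (log2 fold change 1.25, SE 0.434, edgeR adjusted p = 0.166), although the transcript met the minimum of 10 counts only in the dox group, where it was higher. FAM20C-201 had a log2 fold change of -0.42 (SE 0.098, edgeR adjusted p = 0.0612) there.

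Of 10 relatives of FAM20C and secreted phosphoproteins, 4 were tested in each line, and the same gene, PKDCC, was the 1 called in each. PKDCC, a secreted kinase, was at 40.2, 52.5 and 71.0 normalized counts in untreated Pa-Tu-8902 and at 302, 290 and 278 with dox (log2 fold change 2.40, SE 0.167), and at 312 to 342 untreated and 671 to 776 with dox in MIA PaCa-2 (1.12, SE 0.086). FAM20B, a xylose kinase of the same family, had log2 fold changes of -0.38 and -0.58 and was not called, and FAM20A had 0 counts in every library. The median of the 4 was -0.01 in Pa-Tu-8902 against 0.32 in MIA PaCa-2. Over all genes tested, 16.3% and 12% were called in these lines.

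KLHL5 fell to a like extent in both lines. It was at 54.8, 52.2 and 48.5 TPM in untreated Pa-Tu-8902 and at 15.96, 13.04 and 15.05 TPM with dox. The MIA PaCa-2 libraries were at 30.3, 25.4 and 31.2 TPM untreated and at 8.63, 7.14 and 7.82 TPM with dox. The 4 groups did not overlap, with both untreated groups above both dox groups, and Pa-Tu-8902 was 1.79 times MIA PaCa-2 untreated and 1.87 times with dox. The log2 fold change was -1.90 (SE 0.054) in Pa-Tu-8902 against -2.08 (SE 0.093) in MIA PaCa-2, where KLHL5 was called lower (edgeR adjusted p = 5.25e-08). The lines differed by 0.18 (SE 0.108) on the log2 scale. This difference is not tested because the Pa-Tu-8902 value chose the gene, so no difference of either sign is read from it.

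Of 7 KLHL5 transcripts, 3 held most of the signal. KLHL5-205, protein-coding, was at 27.6, 28.9 and 27.4 TPM in untreated Pa-Tu-8902 and at 7.28, 5.69 and 6.48 TPM with dox (log2 fold change -2.17, SE 0.091). In MIA PaCa-2 it was at 17.9, 12.1 and 15.8 TPM untreated and at 3.01, 2.67 and 3.12 TPM with dox, and was called lower (-2.46, SE 0.146, edgeR adjusted p = 0.00106). Its share was lower with dox in both lines, 54.1% ± 3.18 against 44.1% ± 1.36 in Pa-Tu-8902 and 52.5% ± 5.95 against 37.4% ± 2.53 in MIA PaCa-2, with no overlap between the groups. KLHL5-201, which starts within 21 bases of KLHL5-205, had log2 fold changes of -1.50 (SE 0.181) and -2.23 (SE 0.330, edgeR adjusted p = 0.0151 in MIA PaCa-2). KLHL5-207, a model of 909 bases from the 3' part of the gene, had -1.79 (SE 0.207) and -1.54 (SE 0.258, edgeR adjusted p = 0.0224 in MIA PaCa-2). Of the 36 transcripts of the 7 genes, 11 passed the filter on low counts in MIA PaCa-2 and 2 were called, KLHL5-205 and NTSR1-201, beside 1.44% of the 49696 transcripts tested. The KLHL5-205 call also depended on single libraries, and without dox replicate 1 or 2, or with the replicate block, 0 transcripts were called.

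**Figure D2:**
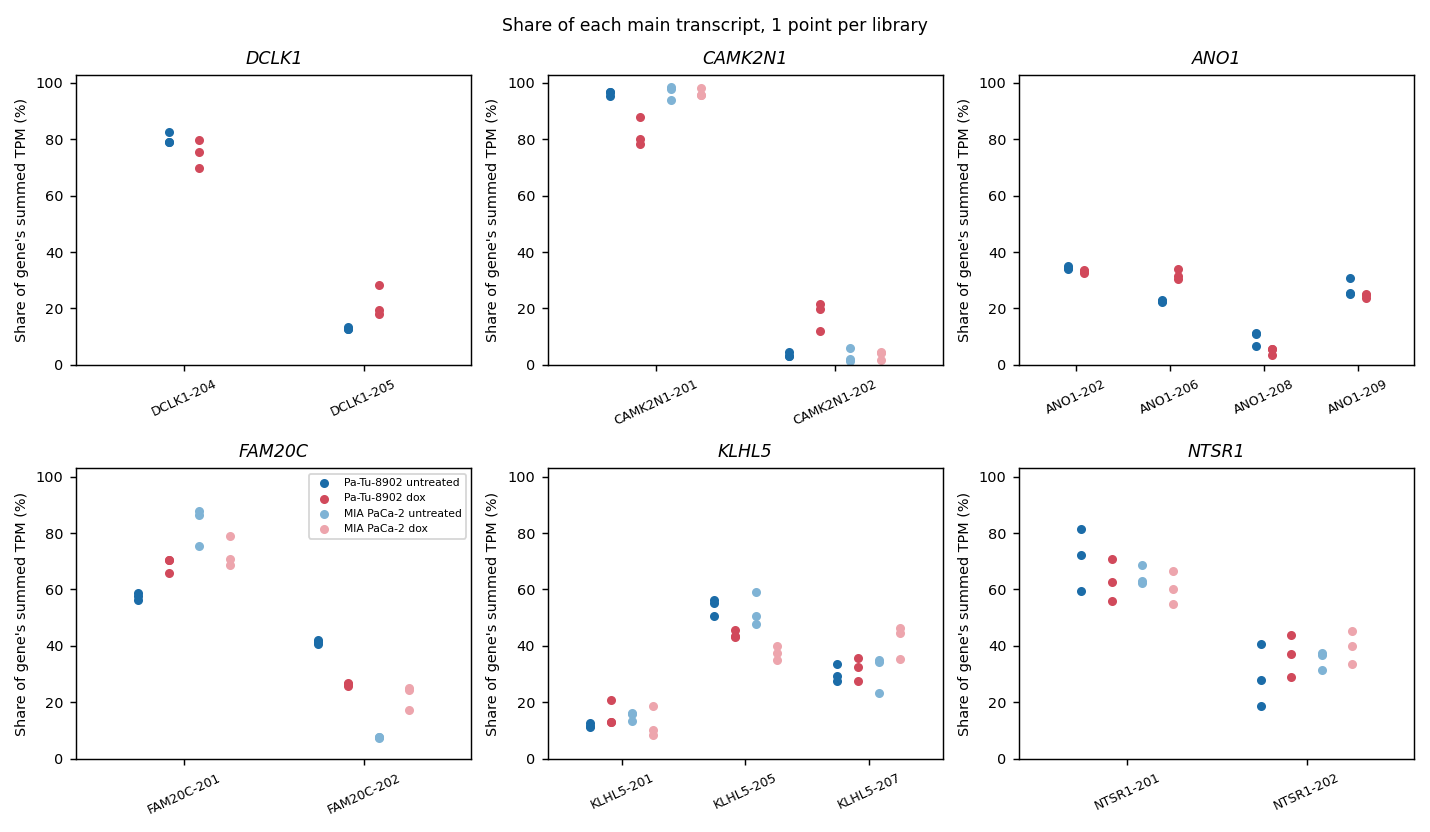
Share of the gene's summed TPM (y axis, percent) taken by the main transcripts of 6 of the genes (x axis), with 1 point per library and 1 colour per group; for DCLK1 and ANO1 the Pa-Tu-8902 libraries alone are drawn, with the 4 most abundant ANO1 transcripts. FAM20C-202 goes from 41.4% to 26.4% in Pa-Tu-8902 and from 7.65% to 22.2% in MIA PaCa-2, and KLHL5-205 is lower with dox in both lines.

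Other Kelch-like genes were called in both directions. Of 43 genes listed with CUL3 and RBX1, 24 were tested in Pa-Tu-8902, with 2 called higher and 3 lower (20.8%, median log2 fold change -0.14), and 25 in MIA PaCa-2, with 2 higher and 3 lower (20%, median -0.05). The shares called over all genes tested were 16.3% and 12%, so nothing is read from these counts about the family. KLHL15 was called lower in both, by -1.19 (SE 0.087) and -0.86 (SE 0.075). KLHL24 was at 88.8, 148 and 110 normalized counts in untreated Pa-Tu-8902 and at 545, 453 and 463 with dox, a log2 fold change of 2.05 (SE 0.159), and had 0.54 (SE 0.092) in MIA PaCa-2, under the fold limit. KLHL21, an adaptor needed in cell division, was called lower in Pa-Tu-8902 (-0.79, SE 0.062) and higher in MIA PaCa-2 (0.75, SE 0.059). CUL3 itself was not called in Pa-Tu-8902, at -0.22 (SE 0.047). KLHL42 was called lower in Pa-Tu-8902 by -0.59 (SE 0.051), and KLHL2 in MIA PaCa-2 by -0.92 (SE 0.131). KLHL28 was called higher in both lines, by 0.78 (SE 0.140) and 0.60 (SE 0.098), and KLHL13, with 0 counts in Pa-Tu-8902, was called lower in MIA PaCa-2 (-0.93, SE 0.145).

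**Figure D3:**
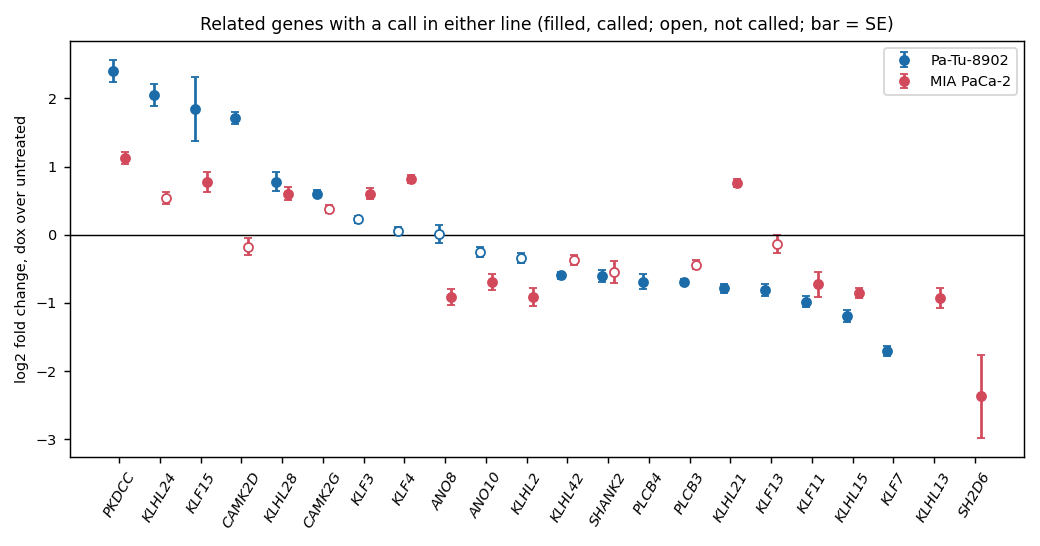
Log2 fold change with dox over untreated (y axis) of the 22 genes related to the 7 (x axis) that were called in either line; points are edgeR estimates with their SE, filled where called, and genes without a point in a line were not tested there. KLF11 and KLHL15 are called lower in both lines, PKDCC, KLF15 and KLHL28 higher in both, and KLHL21 in opposite directions.

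Over all the related genes, 15 of 70 tested in Pa-Tu-8902 were called (6 higher and 9 lower, 21.4%, against 16.3% of all genes) and 13 of 66 in MIA PaCa-2 (6 higher and 7 lower, 19.7%, against 12% of all genes). Of the 7 genes themselves, 5 passed the filter on low counts in MIA PaCa-2, and 2 of these, NTSR1 and KLHL5, were called lower. FAM20C and ANO1 had values below 0 without a call, CAMK2N1 had a value near 0, and DCLK1 and KLF12 could not be tested.

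**Figure D4:**
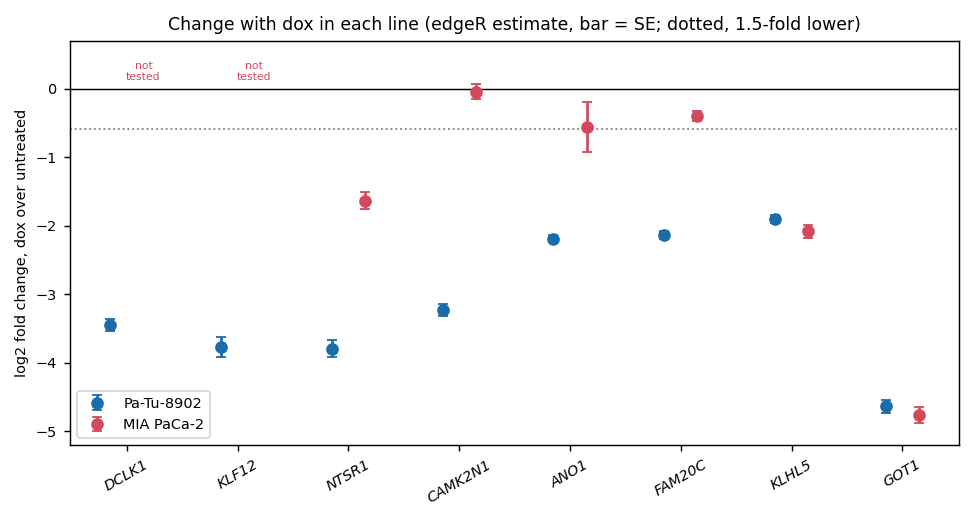
Log2 fold change with dox over untreated (y axis) of the 7 genes and GOT1 (x axis) in each line; points are edgeR estimates from 3 libraries against 3, bars are the SE, and the dotted line is a 1.5-fold fall. In Pa-Tu-8902 the 7 values lie between -3.79 and -1.90, and in MIA PaCa-2 only NTSR1, KLHL5 and GOT1 lie below the dotted line.

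The 7 genes formed no single pattern across the 12 libraries, since their profiles differ in how the lines stand to each other. Correlations of log2 CPM were taken over the 12 libraries, which fall into 4 groups of 3 libraries each. They include the Pa-Tu-8902 libraries on which the 7 were selected, so part of any likeness among the 7 was set by that choice. The values of r are therefore a description. Pearson's r was 0.990 between DCLK1 and ANO1, 0.986 between DCLK1 and KLF12 and 0.960 between KLF12 and ANO1, all at or near 0 in MIA PaCa-2. It was 0.922 between KLF12 and FAM20C, but 0.024 between DCLK1 and NTSR1. The genes most alike outside the 7 were then sought among 13361. For DCLK1 they were ETS2 (Pearson's r = 0.998) and PLAU (0.997), those most like ANO1 were FYN (0.998) and MCM4 (0.998), and those most like KLHL5 were ATF1 (0.996) and PDE12 (0.990). For NTSR1 they were GPR161 (0.986) and ZWILCH (0.982), for CAMK2N1 E2F4 (0.992) and FTSJ1 (0.978), for FAM20C DVL1 (0.992) and CMIP (0.989), and for KLF12 FERMT1 (0.994) and MAPKAPK3 (0.993). A high r here says that the order and spacing of the group means were alike, not that the genes changed by a like amount: MCM4 had log2 fold changes of -0.19 and -0.02. On log2(TPM + 1), 1 of these 14 genes stayed among the 2 most like its gene.

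Some of the reads of these genes may come from overlapping genes, and how many was not measured. The libraries were strand-specific, but the authors state default settings for RSEM and no strand option. In GENCODE release 44, ANO1, FAM20C, NTSR1 and KLHL5 overlap annotated non-coding genes, some of them antisense, while DCLK1 overlaps none.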

How the data were processed

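RNA-seq libraries of both iDox-shGOT1 lines were analysed from the deposited tables, with 3 libraries in each of 4 groups assigned by their titles. The authors trimmed reads with Trimmomatic 0.39, aligned them to GRCh38 with STAR 2.5.2a called by RSEM 1.3.1 and used GENCODE annotation. They deposited expected counts and TPM of 58721 genes and 206694 transcripts, unfiltered and with libraries kept apart, of which 5.34% of gene counts and 34.4% of transcript counts are not whole. FPKM tables were not used here.

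After rounding, TMM factors were computed and each line was tested on its own with glmQLFit and glmQLFTest of edgeR 4.0.16 (R 4.3.3). Genes or transcripts needed 10 counts or more in 3 or more libraries. Calls required 1.5-fold or more and p below 0.01 after Benjamini-Hochberg adjustment. The SE is the log2 fold change over the root of F. Differences between lines came from 1 fit of all 12 libraries. The share of a transcript is its part of the summed TPM of its gene. A count of 0 allows up to 3 counts, which covers counting error only. Alternatives used DESeq2 1.42.0 and limma 3.58.1. Steps were tested on simulated data.

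The 7 genes, the lists of related genes and markers and the tests were chosen with earlier results of these data known. Named genes are the 7, GOT1, up to 5 called genes of each related list by smallest p (otherwise the 2 most abundant), transcripts with at least 10% of a gene's TPM, the 2 genes most alike in profile, and the genes beside KLHL5 in the order of falls. FAM20A, FAM20B, NTS, NTSR2, SORT1, POU2F3, PTGS1, AVIL, TRPM5, KLF15, KLHL13, KLHL28, DCX, DCLK3, CUL3 and the markers of cell types were named outside this rule, after their values were seen. Transcripts were placed by GENCODE release 44; 24 of 36 had the same version there, and ANO1-206 was not placed.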

Additional observations from a re-analysis of the deposited data

Results flagged for a closer look

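FAM20C-202 was lower with dox in all Pa-Tu-8902 libraries and higher in all MIA PaCa-2 libraries, where the mean was 1.71 TPM higher. That MIA PaCa-2 change did not pass its own test (edgeR adjusted p = 0.166, on 8 to 25 estimated counts), and the difference between the lines was not tested. For genes related to the 7, the difference was tested by the interaction of line and dox in edgeR over all 12 libraries. The change was higher in Pa-Tu-8902 by 1.90 on the log2 scale for CAMK2D (adjusted p = 6.91e-08), by 1.51 for KLHL24 (1.11e-05), by 1.28 for PKDCC (5.39e-05) and by 0.92 for ANO8 (0.000704). It was lower in Pa-Tu-8902 for KLHL21, with a difference of -1.54 (adjusted p = 1.28e-09), for KLF4 with -0.77 (3.03e-06) and for KLF13 with -0.68 (0.00750). The same differences for the 7 genes were not tested, since their values in Pa-Tu-8902 chose them. Groups of 3 libraries are too small to single out a library.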

How the results depend on the processing

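NTSR1 and KLHL5 were called lower in MIA PaCa-2 under all alternatives, and with no fold limit FAM20C joined them, which made 3. The log2 fold change of NTSR1 there ranged from -1.76 to -1.19 and that of KLHL5 from -2.17 to -1.76. In Pa-Tu-8902 all 7 genes stayed below 0, and the widest range was that of KLF12, -3.86 to -0.98, the latter on log2(TPM + 1), which understates the change of low genes. Without a fold limit 5692 genes and 33 related genes were called in Pa-Tu-8902, and 3973 and 29 in MIA PaCa-2. The number of transcripts called in MIA PaCa-2, 2, was 5 with DESeq2 and 0 with a replicate block, and 0 to 2 when libraries were left out in turn. The block changed no call of the 7 genes. Libraries of the same number showed little shared deviation (correlations of -0.093 to 0.141 over both lines). This cannot exclude that the numbers pair them, since a pairing need not leave a shared deviation. For CAMK2N1 in MIA PaCa-2, with no call, the value crossed 0 in both directions, between -0.16 and 0.05. Transcripts of few counts, ANO1 in MIA PaCa-2 and splits between overlapping transcripts are limited by depth.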
